A study of Homo sapiens with 6 samples.

Results

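Chromosome 20 carried 1849 peaks of open chromatin in these data, and all of them came from cells depleted of 3 proteases. The 3 control lines had no peak on it, but they had only 13, 4 and 2 peaks on all chromosomes, so this absence is not particular to chromosome 20. The peaks are every interval that the 6 deposited lists place on chromosome 20 of build GRCh38, counted once per interval, out of 41450 over chromosomes 1-22, X and Y. Merging peaks that overlap between libraries gave 1377 regions, out of 32822 in all.

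The method was ATAC-seq: a transposase cuts DNA where chromatin is open and tags the cut ends for sequencing. U937 is an established human monocytic line. The control group was 3 lines transduced with control plasmids. The ΔNSPs group was 3 independent clones transduced with ΔNSPs plasmids and depleted of the neutrophil serine proteases CTSG (cathepsin G), ELANE (neutrophil elastase) and PRTN3 (proteinase 3) at once. All 6 were cultured with 500 µg/ml geneticin, and were treated with 200 units/ml DNase for 30 min at 37 °C and frozen in 5% DMSO before the assay. Each ΔNSPs library is 1 clone, so what is particular to a clone and what all depleted cells share can be told apart only by what recurs among the 3.

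Open chromatin in a cell line lies mainly at the promoters of genes in use and at enhancers, where transcription factors displace nucleosomes. Chromosome 20 is small and gene-dense. Its short arm is known for the SIRP family of myeloid receptors, the replication clamp PCNA and a cystatin cluster. Its long arm holds TOP1, ASXL1, SRSF6 and CEBPB, several of them studied in blood disease, where a recurrent deletion of the long arm occurs, and it also holds clusters of WFDC and BPI-fold genes, used mainly in epithelia. Beta-defensin genes, peptides of epithelial defence, lie in clusters on both arms.

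The lists say little about the cells' identity. Of 11 monocytic marker genes, 4, 5 and 1 had a peak within 1000 bp of a gene end in clones 1, 2 and 3, not far from the background of 39.1, 29.6 and 6.55% of all protein-coding genes. CD68, a macrophage scavenger receptor, had one in all 3 clones and ITGAM, an integrin of myeloid cells, in 2, while SPI1, LYZ, MPO and FCGR1A had none in any clone. Of 7 markers of other blood lineages, 1, 2 and 0 had one. The depleted genes lie on other chromosomes and show nothing about depletion here: CTSG had a gene-end peak in clone 2 alone, and ELANE and PRTN3 had none in any library. Read totals were not given, so depth is unknown. A list holds no value where no peak was called, so sites were compared by the presence of a peak.

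A few promoters show what the recurrent open sites of the chromosome look like. They were chosen after their values were seen: those of CSE1L, IFT52 and ARFRP1, from the long arm, lay under peaks of all 3 clones, and those of MCM8 and XRN2, from the short arm, lay under peaks of clones 1 and 2 in a stretch where clone 3 had none. The sequences are RefSeq's (GRCh38.p14), 250 bases before to 50 after the transcript start, on the gene's strand. Capitals mark matches on either strand to 10 motifs: the GC box of SP factors with the letters GGGCGG, the box of NF-Y with the letters CCAAT, the ETS factors' CCGGAA, the NRF1 letters GCGCANGCG, the cyclic AMP response element (CRE) spelled TGACGTCA, the E-box spelled CACGTG, the YY1 letters AAGATGGCG, the PU.1 letters GAGGAAGT, the C/EBP letters TTGCGCAA and the AP-1 letters TGACTCA. The ETS and PU.1 letters share their core, as the CRE and AP-1 letters share their start.
CSE1L, chr20:49046062-49046361, plus strand: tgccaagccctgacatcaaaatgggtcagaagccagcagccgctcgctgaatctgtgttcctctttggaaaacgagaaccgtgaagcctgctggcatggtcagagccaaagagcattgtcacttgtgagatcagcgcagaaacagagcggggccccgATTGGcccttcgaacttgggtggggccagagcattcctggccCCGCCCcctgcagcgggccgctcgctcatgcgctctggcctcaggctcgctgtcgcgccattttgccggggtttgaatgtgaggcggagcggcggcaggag
IFT52, chr20:43590687-43590986, plus strand: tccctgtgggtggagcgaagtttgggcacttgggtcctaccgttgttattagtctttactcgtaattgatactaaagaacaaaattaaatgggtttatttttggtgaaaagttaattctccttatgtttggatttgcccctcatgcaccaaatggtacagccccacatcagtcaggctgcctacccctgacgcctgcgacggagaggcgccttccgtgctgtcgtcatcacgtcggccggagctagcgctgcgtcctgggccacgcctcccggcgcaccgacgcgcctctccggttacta
ARFRP1, chr20:63707804-63708103, minus strand: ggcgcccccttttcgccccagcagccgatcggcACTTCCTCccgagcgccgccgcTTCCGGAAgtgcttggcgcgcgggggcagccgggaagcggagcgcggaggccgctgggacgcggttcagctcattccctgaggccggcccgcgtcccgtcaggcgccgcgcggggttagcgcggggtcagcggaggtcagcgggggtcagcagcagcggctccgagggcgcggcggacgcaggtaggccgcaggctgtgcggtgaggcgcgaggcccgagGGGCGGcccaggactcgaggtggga
MCM8, chr20:5950402-5950701, plus strand: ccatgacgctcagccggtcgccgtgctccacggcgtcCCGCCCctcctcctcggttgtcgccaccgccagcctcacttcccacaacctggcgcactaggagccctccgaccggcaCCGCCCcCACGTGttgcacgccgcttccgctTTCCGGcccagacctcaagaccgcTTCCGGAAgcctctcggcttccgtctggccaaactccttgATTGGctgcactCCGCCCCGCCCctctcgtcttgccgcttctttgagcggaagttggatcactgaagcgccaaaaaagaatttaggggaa
XRN2, chr20:21303081-21303380, plus strand: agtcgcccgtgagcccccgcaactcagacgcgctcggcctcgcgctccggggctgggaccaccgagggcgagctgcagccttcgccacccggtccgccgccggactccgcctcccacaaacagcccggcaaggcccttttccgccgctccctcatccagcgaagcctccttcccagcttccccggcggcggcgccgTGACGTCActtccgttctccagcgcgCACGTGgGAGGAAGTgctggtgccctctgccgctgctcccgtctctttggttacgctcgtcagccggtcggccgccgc

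The sites differ in the letters they hold. The CSE1L window has 1 GC box and 1 CCAAT box, and the ARFRP1 window has 1 GC box, 2 overlapping ETS matches and 1 PU.1 match. The MCM8 window has 4 GC boxes, 3 ETS matches, 1 CCAAT box and 1 E-box, and the XRN2 window has 1 CRE, 1 E-box and 1 PU.1 match. The IFT52 window holds none of the 10 motifs and has the lowest G and C content of the 5, at 53.7%, against 61.7 to 76.7% in the others. Peaks covered 177, 148 and 254 of the 300 bases of the CSE1L window in clones 1, 2 and 3, and 300, 121 and 261 bases of the IFT52 window. They covered 300 and 170 bases of the MCM8 window and 300 and 101 of the XRN2 window in clones 1 and 2.

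Over the whole chromosome, 921 such windows were in the RefSeq table, and peaks of clones 1, 2 and 3 touched 230, 187 and 82 of them. The touched windows were rich in G and C, with a median content of 68.3, 66.3 and 66.2%, against 54.0% in the 637 windows without a peak in any clone and 59.0% in all 921. An ETS match was present in 39.1, 44.4 and 50% of the touched windows, against 19.4% of all windows of the chromosome and 17.2% of 35116 windows genome-wide. A GC box was present in 70.9, 71.7 and 74.4%, against 41.8% and 45.0%. The NRF1 letters were present in 21.7, 24.1 and 24.4%, against 10.3% and 7.52%. The PU.1 letters, those of a myeloid factor, were near the background at 3.04, 3.21 and 2.44%, against 2.17% and 2.59%, and so was the CCAAT box, at 30.9, 34.8 and 34.1% against 32.7% and 34.6%. The AP-1 letters were in 1.74, 1.60 and 0.00% of the touched windows, against 4.13% and 4.95%. Windows of neighbouring genes can overlap, and the letters follow the base composition, so these shares describe the windows and are not tests.

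The first comparison asked how much of chromosome 20 was open in the depleted clones and in the control lines. Control lines 1, 2 and 3 had 0, 0 and 0 peaks on the chromosome, from lists of 13, 4 and 2 peaks. Clones 1, 2 and 3 had 485, 1173 and 191, from lists of 14262, 24981 and 2188. The groups did not overlap, and among the clones clone 2 was highest and clone 3 lowest. The mean was 616 ± 504 peaks (SD, n = 3) against 0 ± 0 (SD, n = 3), a difference of 2.68 on the log10(peaks + 1) scale (exact two-sided permutation p = 0.1, the smallest that 3 against 3 allows, and 0.1 after adjustment over 3 measures). The control lists are so short that 0 peaks on 1 chromosome is unremarkable, and the size of the difference depends on the 1 added. This comparison therefore shows the lengths of the lists and nothing particular to chromosome 20. The peaks covered 156, 147 and 39.8 kb in the clones. Clone 2 therefore had more than clone 1 in number and slightly less in length. With 0 in every control line, the permutation p is 0.1 for any 3 clones that have peaks, so it says nothing about the spread between them. The lowest −log10 p listed was 7.45 to 8.0 in the control lists and 4.86 to 5.75 in the clone lists. With the limit of the strictest control list applied to all, a filter chosen after seeing the data, 272, 699 and 114 chromosome 20 peaks remained in clones 1, 2 and 3.

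The share of each clone's list that fell on the chromosome was lowest in clone 1 and highest in clone 3, whose list is the shortest. It was 3.40% in clone 1 (95% exact Clopper-Pearson interval 3.11 to 3.71), 4.70% in clone 2 (4.44 to 4.97) and 8.73% in clone 3 (7.58 to 9.99), a mean of 5.61 ± 2.78% (SD, n = 3). With each clone held to its 2188 peaks of highest −log10 q, the shares were 4.94, 7.63 and 8.73% in clones 1, 2 and 3. In these equally long lists clone 2 was closer to clone 3. The chromosome holds 537 of 19970 protein-coding genes, 2.69%. Peak share over gene share was 1.26, 1.75 and 3.25, which placed chromosome 20 at rank 2, 4 and 1 of 23 chromosomes in clones 1, 2 and 3. The chromosome was chosen with these shares known, so they are a description. All intervals cover counting error only.

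The clones differed in where along the chromosome their peaks lay. The chromosome was cut into 13 bins of 5 Mb. The first 25 Mb (bins 1 to 5) lie in the short arm, bin 6 holds the centromere, and the sequence from 30 Mb on (bins 7 to 13) belongs to the long arm. The first 25 Mb held 217 of 485 peaks of clone 1 (44.7%, interval 40.3 to 49.3), 372 of 1173 of clone 2 (31.7%, 29.1 to 34.5) and 18 of 191 of clone 3 (9.42%, 5.68 to 14.5), with 31.8% of the chromosome's genes. The long arm from 30 Mb held 250, 747 and 168 peaks, 51.5, 63.7 and 88.0%. The share of clone 2 was close to that of the genes, the interval of clone 1 lay above it, and that of clone 3 below it.

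**Figure D1:**
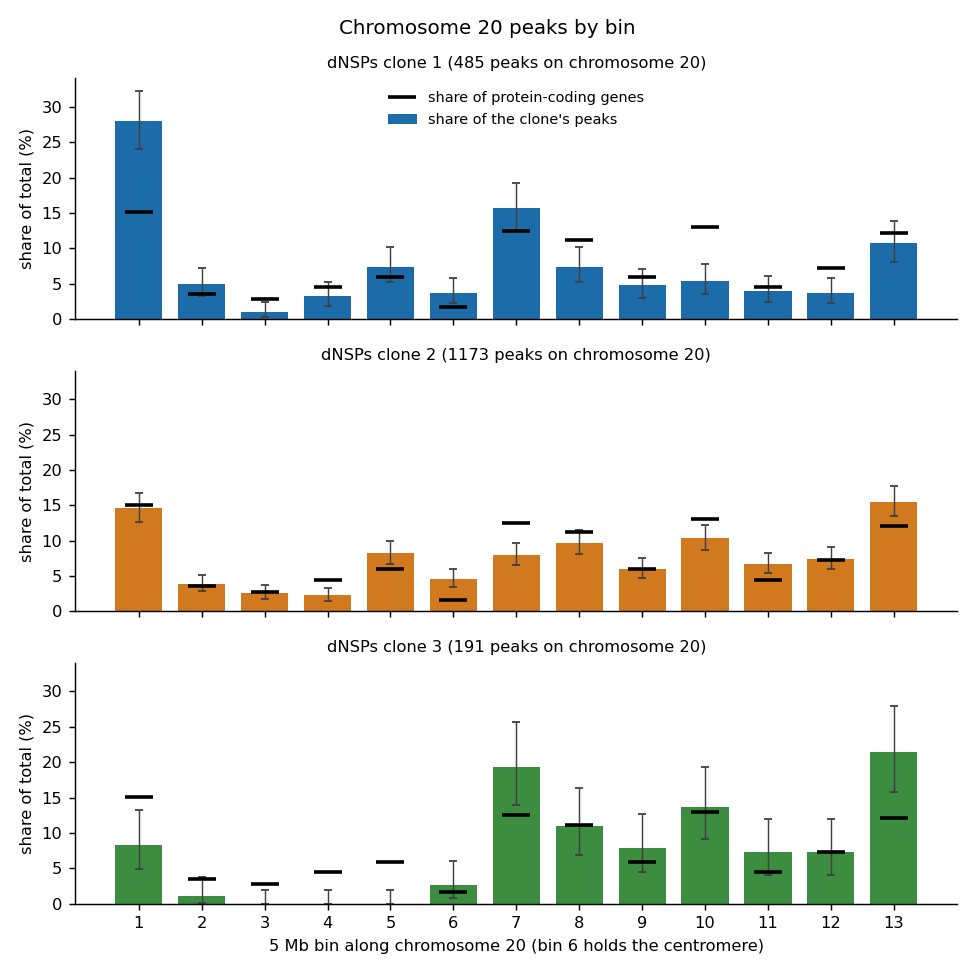
Share of each clone's chromosome 20 peaks in each 5 Mb bin (bars, in percent, with 95% exact Clopper-Pearson intervals) and share of the chromosome's protein-coding genes in the same bin (black marks). Clone 1 has its tallest bar in bin 1 (28.0%), clones 2 and 3 in bin 13 (15.5% and 21.5%), and clone 3 has no peak in bins 3, 4 and 5.

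The same split shows against the whole genome. The first 25 Mb hold 0.856% of all protein-coding genes and 1.52, 1.49 and 0.823% of all peaks of clones 1, 2 and 3. Peak share over gene share was therefore 1.78 (interval 1.55 to 2.03) in clone 1, 1.74 (1.57 to 1.92) in clone 2 and 0.961 (0.570 to 1.51) in clone 3. From 30 Mb on, with 1.79% of all genes, the ratio was 0.981 (0.864 to 1.11) in clone 1, 1.67 (1.56 to 1.79) in clone 2 and 4.30 (3.69 to 4.96) in clone 3. Pooled over each part, clone 1 exceeded its genome-wide rate of peaks per gene in the first 25 Mb and not from 30 Mb on. Clone 3 exceeded its own rate from 30 Mb on and not in the first 25 Mb, and clone 2 did in both by similar factors. Neither part is uniform: in the first 25 Mb clone 3 had 16 peaks in bin 1 and 0 in bins 3, 4 and 5. On the long arm, clone 1 had 76 peaks in bin 7, 15.7% of its chromosome 20 peaks against 12.48% of the chromosome's genes. Each clone is 1 library, so these differences between clones have no replicate check.

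**Figure D2:**
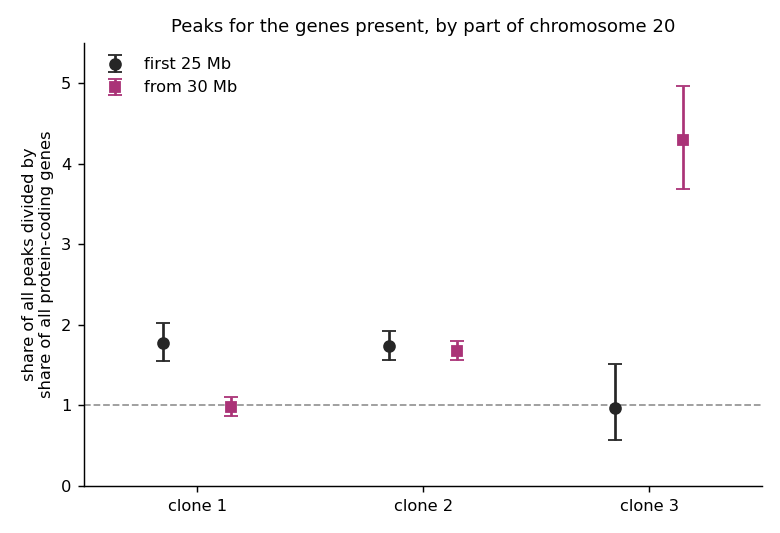
Share of all peaks of a clone divided by the share of all protein-coding genes, for the first 25 Mb (circles) and the sequence from 30 Mb on (squares) of chromosome 20, with bars for the 95% exact Clopper-Pearson interval of the peak share. Each point pools the bins of its part, which are not uniform. The dashed line at 1 marks as many peaks as the genes' share. Pooled, clone 1 lies above it in the first 25 Mb alone, clone 3 from 30 Mb on alone, and clone 2 in both.

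The split was also measured in lists of equal length. With each clone held to its 2188 peaks of highest −log10 q, as many as clone 3 has, the first 25 Mb held 73 of 108 chromosome 20 peaks of clone 1 (67.6%), 57 of 167 of clone 2 (34.1%) and 18 of 191 of clone 3 (9.42%). The ratios of peak share to gene share were then 3.90, 3.04 and 0.961 in the first 25 Mb and 0.767, 2.74 and 4.30 from 30 Mb on. At a fold enrichment of 5 or more the share of clone 2 in the first 25 Mb fell to 17.2%, and clone 3 had 0 of 20 such peaks there.

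Single bins followed this split only in part. Clone 1 was fullest in bin 1, with 136 of 485 peaks (28.0%, interval 24.1 to 32.3) against 15.1% of the genes. Its bins 3 and 4, also in the first 25 Mb, held 1.03 and 3.30% against 2.79 and 4.47% of the genes. Its second fullest bin was bin 7 of the long arm, with 76 peaks (15.7%, interval 12.55 to 19.2) against 12.48%. Clones 2 and 3 were fullest in bin 13, the end of the long arm, with 182 of 1173 (15.5%) and 41 of 191 (21.5%) against 12.1% of the genes. The fullest bin held a mean of 21.7 ± 6.27% (SD, n = 3). In bin 1 clone 3 had 16 peaks and in bin 2 it had 2, and in bins 3, 4 and 5 it had 0, where clone 1 had 5, 16 and 36 and clone 2 had 31, 27 and 97. Across the 13 bins, peak number followed gene number in each clone (Spearman's rho 0.786, 0.851 and 0.778 in clones 1, 2 and 3). The bins share a library and a chromosome, so these values are descriptions.

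Clone 3 had a stretch of 19.9 Mb without a peak, from 5674524 to 25623944, that contains 92 protein-coding genes. Clones 1 and 2 had 86 and 205 peaks inside it. Gene-end peaks stood at 44 of the 92 genes in clone 1 (47.8%), at 36 in clone 2 (39.1%) and at 23 in both, beside 43.2 and 38.9% of all genes of the chromosome in clones 1 and 2. Among those 23 were XRN2, the nuclear exonuclease that ends transcription (fold enrichment 4.35 and 3.01 in clones 1 and 2), MCM8, a helicase of DNA repair, and TRMT6, a tRNA methyltransferase, which share a peak (2.77 and 2.46), CD93, a receptor of myeloid and endothelial cells (5.12 and 4.32), SEC23B, a coat protein of vesicles that leave the endoplasmic reticulum (4.17 and 2.95), and PYGB, a glycogen phosphorylase (5.18 and 4.88). They were chosen from the 23 after their values were seen. A stretch of this kind is not unique in clone 3: of its 512 peak-free stretches over 1 Mb, this was number 13 by length and number 14 by genes. The longest stretches of clones 1 and 2 on the chromosome were 3.60 Mb (25697043 to 29300482) and 2.34 Mb (26277940 to 28620123), at the centromere, and held 0 genes.

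The few peaks of clone 3 in the first 25 Mb recurred in the other clones. All 18 overlapped a peak of clone 2 and 17 a peak of clone 1 as well. They ended at 5674523, 9 of them lay at gene ends, and their fold enrichment ran from 1.71 to 4.40. They included peaks at CPXM1 (4.25), DDRGK1 (4.33) and AP5S1 (3.25) and a pair in the body of SIRPA, the inhibitory receptor of myeloid cells that binds CD47 (3.02 and 2.97).

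The overlap between clones followed the same split. Of 122 regions in the first 25 Mb with a peak in both clone 1 and clone 2, 17 had one in clone 3 (13.9%, interval 8.33 to 21.4). From 30 Mb on it was 89 of 150 (59.3%, 51.0 to 67.3), and on the other chromosomes 1145 of 6119 (18.7%, 17.7 to 19.7). Pooled, the first 25 Mb of clone 3 were therefore close to the rest of its genome, and the part from 30 Mb on stood above both. The pooled value mixes unlike parts, since all peaks of clone 3 there ended at 5674523, before its peak-free stretch. At a −log10 q of 5 or more the shares were 1 of 61 (1.64%) in the first 25 Mb and 25 of 58 (43.1%) from 30 Mb on. Regions of clone 1 had a peak in clone 2 at similar rates in both parts, 56.2% (122 of 217) and 60.2% (150 of 249). In the other direction, regions of clone 2 had a peak in clone 1 in 33.6% (interval 28.8 to 38.7) in the first 25 Mb and 20.5% (17.6 to 23.6) from 30 Mb on. In the equally long lists the shares for clone 3 were 6 of 21 (28.6%) and 7 of 8 (87.5%).

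**Figure D3:**
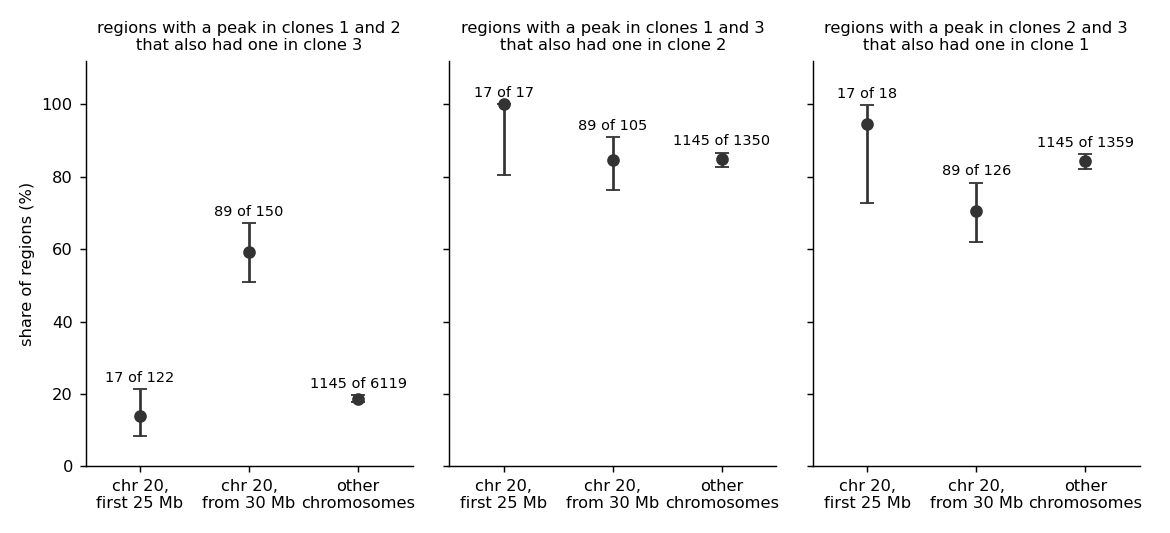
Share of regions with a peak in 2 given clones that also had one in the remaining clone, for the first 25 Mb and the part from 30 Mb on of chromosome 20 and for the other chromosomes (points with 95% exact Clopper-Pearson intervals, counts above). In the left panel the part from 30 Mb on stands at 59.3%, above the 13.9% of the first 25 Mb and the 18.7% of the other chromosomes; in the middle and right panels the shares lie between 70.6 and 100%.

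The local background behind the peaks also differed along the chromosome. It was solved from the fold and the p, which fitted a whole number of reads for every chromosome 20 peak to within 0.001 of the −log10 p. The median implied background was 8.33, 5.33 and 9.91 reads in the first 25 Mb and 4.97, 2.56 and 7.01 reads from 30 Mb on in clones 1, 2 and 3. It was higher in the first 25 Mb in each clone, also in clones 1 and 2, whose peaks were abundant there. The background did not follow the cut between the arms, however. In bin 7, on the long arm, its median was 9.87, 6.51 and 13.1 reads in clones 1, 2 and 3, above that of the first 25 Mb in each. The median fold enrichment was 3.37, 3.91 and 2.98 in the first 25 Mb and 3.68, 4.76 and 3.54 from 30 Mb on. The part of the background in the split between clones was not tested.

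In total, 336 of the 1377 regions were open in 2 or 3 clones and in no control line (24.4%), against a background of 20.9% of all regions. All 3 clones had a peak in 108 (7.84%), against 3.82%. Most regions belonged to 1 clone: 186 to clone 1, 828 to clone 2 and 27 to clone 3. Clones 1 and 2 shared 174 without clone 3, clones 2 and 3 shared 38 without clone 1, and clones 1 and 3 shared 16 without clone 2. The count of regions in at least 2 clones fell to 145 without clone 1 and to 124 without clone 2, and was 282 without clone 3.

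Peak width and position differed more between clones than between chromosome 20 and the rest. The median width on chromosome 20 was 251, 103 and 171 bp in clones 1, 2 and 3 and on the other chromosomes 251, 98 and 171 bp, a mean difference of 1.67 ± 2.89 bp (SD, n = 3; exact two-sided sign-flip permutation p = 1, adjusted over 3 tests p = 1). Summits lay within 1000 bp of an end of a protein-coding or long non-coding gene in 51.1, 25.5 and 47.1% of the chromosome 20 peaks and in 56.3, 27.8 and 51.2% of the others. The difference was −3.84 ± 1.44 percentage points (SD, n = 3), lower on chromosome 20 in 3 of 3 clones (exact two-sided sign-flip permutation p = 0.25, the smallest that 3 clones allow; adjusted p = 0.375). It was −11.2 points where −log10 q reached 5, and turned to 1.28 points higher among peaks with a fold enrichment of 5 or more. The other chromosome 20 summits lay in gene bodies (29.1, 44.6 and 30.9%) or between genes (19.8, 29.9 and 21.99%). The median width of gene-end peaks was above that of the other peaks of the chromosome in 3 of 3 clones, at 343 against 197 bp in clone 1 and 116 against 99 bp in clone 2. The difference was 146, 17 and 25.5 bp in clones 1, 2 and 3 (exact two-sided sign-flip permutation p = 0.25, adjusted p = 0.375).

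By gene, clones 1, 2 and 3 had a gene-end peak at 232, 209 and 93 of the 537 protein-coding genes of the chromosome, and the control lines at 0. That is 43.2, 38.9 and 17.3%, against a background of 39.1, 29.6 and 6.55% of all protein-coding genes in the clones and 0.00501, 0.00 and 0.00% in the control lines. The difference from the control lines was 2.22 on the log10(genes + 1) scale (exact two-sided permutation p = 0.1, adjusted p = 0.1). In the first 25 Mb, 53.2, 40.9 and 5.26% of 171 genes had a peak, and from 30 Mb on 37.8, 37.8 and 22.97% of 357 genes. In clone 3 the first 25 Mb pooled were near the background of 6.55%, with 9.88% in bin 1, 5.26% in bin 2 and 0% in bins 3, 4 and 5. The part from 30 Mb on stood above that background. With 2 or 3 clones and no control line, 163 genes were marked by a gene-end peak (30.4%, background 23.3%), and 72 by all 3 clones (13.4%, background 5.40%). Of the 72, 9 lay in the first 25 Mb and 61 from 30 Mb on. The 163 became 75 without clone 1 and 84 without clone 2.

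**Figure D4:**
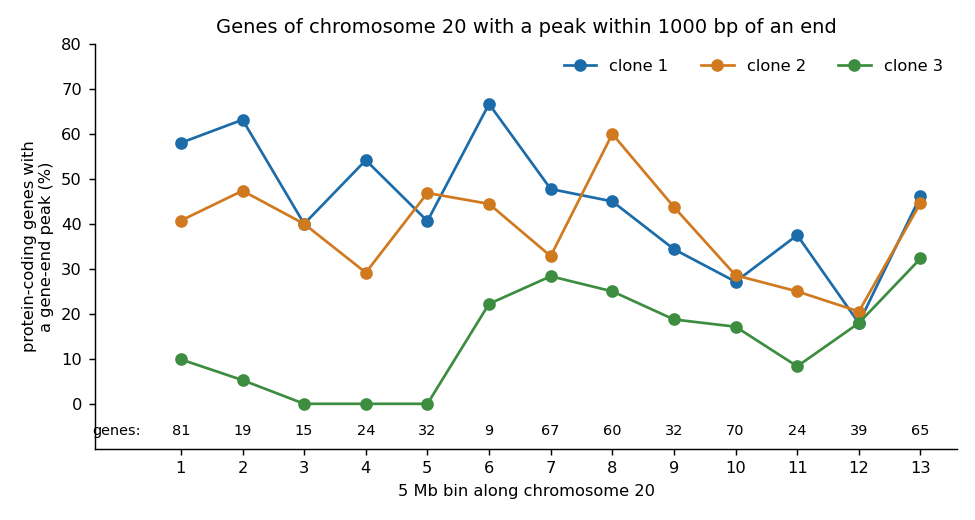
Share of protein-coding genes with a peak within 1000 bp of an end in each 5 Mb bin of chromosome 20, for the 3 clones; the number of genes per bin stands under the points. Clone 3 is at 0 in bins 3, 4 and 5, where clones 1 and 2 lie between 29.2 and 54.2%, and at 32.3% in bin 13, closer to the 46.2 and 44.6% of clones 1 and 2.

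The 20 genes named next had gene-end peaks in all 3 clones and the smallest sum of ranks by −log10 q, which does not need a high rank in each clone. CSE1L led them. It encodes the export receptor that returns importin alpha to the cytoplasm. Its peaks lay at 49046185 to 49046973, 49046108 to 49046255 and 49046108 to 49046878 in clones 1, 2 and 3, over the promoter printed above. Their fold enrichment was 5.64, 6.43 and 3.48. RAB5IF came next (3.61, 6.99 and 4.61), and RASSF2, a Ras-association gene of the short arm, followed (4.72, 6.64 and 2.59), with rank 6 in clones 1 and 2 and rank 172 of 191 in clone 3. Clone 2 had the highest value in each of these 3 genes.

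Among the 20 were genes that act on RNA and DNA. RBM39, a splicing factor, had peaks of 3.99, 4.48 and 3.15 in fold enrichment in clones 1, 2 and 3. RALY, an RNA-binding protein, had 4.38, 3.80 and 2.59. Its clone 1 peak, 33993132 to 33994600, held 7 summits and was the region where the clones together had the most peaks, 5. ZNFX1, an RNA helicase of antiviral defence, had 5.32, 5.32 and 4.01. TOP1, the topoisomerase that relaxes supercoiled DNA, had 2.82, 5.61 and 2.75, with clone 2 standing apart. TP53RK, a kinase of the complex that modifies tRNAs, had 4.33, 4.66 and 4.20, nearly level among the clones.

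The others have varied roles. IFT52, a subunit of the particle that carries cargo along cilia, had 5.65, 7.51 and 4.48. AP5S1, a subunit of an endosomal adaptor complex, had 7.03, 4.50 and 3.25, with clone 1 highest. CHMP4B, the filament-forming subunit of the ESCRT machinery, had 3.46, 2.99 and 2.76, and OSBPL2, a lipid transfer protein, had 2.73, 4.77 and 2.24. CPXM1, a carboxypeptidase-like gene, had 5.93, 4.29 and 4.25, and TPD52L2 had 4.73, 7.83 and 3.59. SPAG4 had 3.43, 3.84 and 2.68. Some neighbouring genes share a peak: ARFRP1, a small GTPase of the Golgi, with ZGPAT, a zinc-finger repressor (6.29, 8.53 and 4.64), and PTK6 with SRMS, both non-receptor tyrosine kinases (4.67, 5.46 and 2.52). For ASXL1, a chromatin regulator mutated in myeloid disease, the peaks were at opposite ends of the gene: that of clone 1 lay at 32357991 to 32358327 beside the lower coordinate, and those of clones 2 and 3 at 32439553 to 32439750 and 32439530 to 32439759 beside the upper one. The fold was 2.60, 3.74 and 3.71. The best peaks of different clones lay at opposite ends in 9 of the 163 genes with gene-end peaks in 2 or 3 clones, among the genes named here also in IDH3B, RNF24, SS18L1 and CST5. Best peaks at the same end need not overlap either. Those of PRPF6, named below, lay at 63980060 to 63980255, 63980939 to 63981155 and 63980366 to 63980517 in clones 1, 2 and 3. In TPD52L2 and RTEL1 the best peak of clone 3 lay apart from those of clones 1 and 2.

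**Figure D5:**
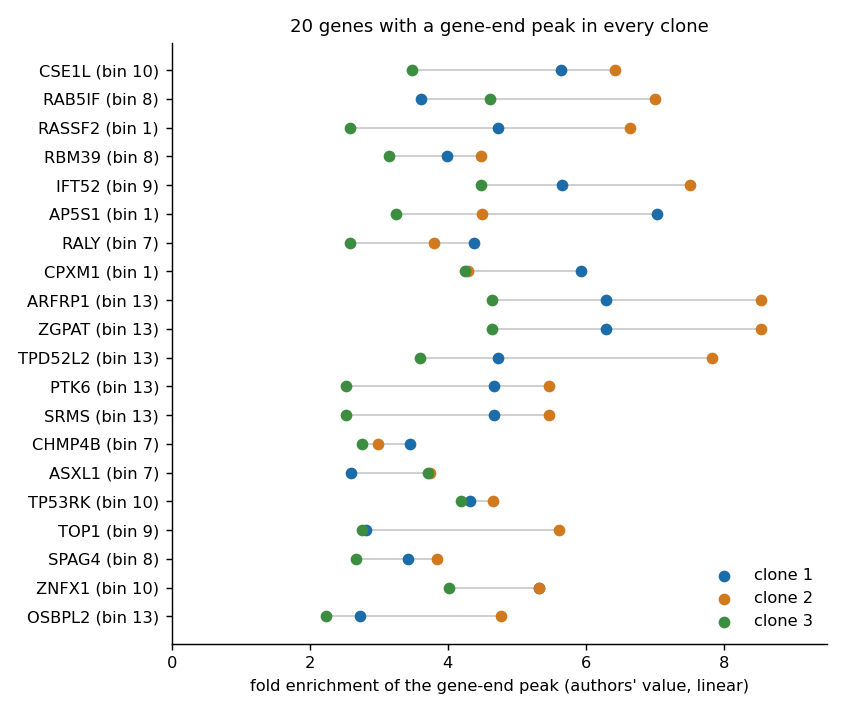
Fold enrichment (the authors' value, linear axis) of the gene-end peak in clones 1, 2 and 3 for the 20 genes with peaks in all 3 clones whose −log10 q ranked highest; the bin of each gene is in brackets. Values run from 2.24 (OSBPL2, clone 3) to 8.53 (ARFRP1 and ZGPAT, clone 2), and 3 of the 20 genes, RASSF2, AP5S1 and CPXM1, lie in bin 1.

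The peaks of highest fold lay mostly away from gene ends in clones 2 and 3 and at gene ends in clone 1. The top peak of clone 2, at 64066080 to 64066308 in the body of TCEA2, a transcription elongation factor, had a fold enrichment of 20.5, above the 14.7 of the highest peak on the other chromosomes. The top peak of clone 3 was in the same place, 64066058 to 64066269, at 6.83, and clone 1 had none there. Clone 2 also had peaks of 15.5 in the body of UCKL1, a uridine kinase, at 63941735 to 63941973, and of 11.8 at 45998437 to 45998608, 10300 bp from MMP9, the gelatinase of macrophages and neutrophils. Both were absent from clones 1 and 3, and MMP9 had no gene-end peak in any clone. Clone 3 had 6.43 at 58789041 to 58789207, 50541 bp from GNAS, the stimulatory G protein, shared with clone 2, and 6.39 at SLC35H1, shared with clone 1. In clone 1 the highest were at gene ends: DDRGK1 (8.65), a ufmylation adaptor at the endoplasmic reticulum, SYS1 (7.64), a Golgi membrane protein, and NOP56 (7.39), a core protein of box C/D small nucleolar RNPs. The peaks at DDRGK1 and SYS1 overlapped peaks of both other clones, and that at NOP56 a peak of clone 2.

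Of the 108 regions of the chromosome with a peak in all 3 clones, 47 lay away from gene ends. The same count was not made for the other chromosomes, so whether 47 is many or few is not known. The one of best rank lay at 60058301 to 60058727, in a long non-coding gene 22367 bp from CDH26 (fold 4.86, 5.60 and 3.52). The next, at 37265196 to 37265405, was 3382 bp from GHRH (4.63, 11.2 and 4.11). A region at 31610608 to 31610997 lay 4098 bp from ID1, an inhibitor of basic helix-loop-helix factors (3.68, 4.77 and 2.98). One at 32652816 to 32653138 lay in C20orf203 (2.75, 5.98 and 2.22). Clone 2 was highest in each of these 4 regions. All 4 lay from 30 Mb on.

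The gene groups of the chromosome are given by how many members were marked by 2 or 3 clones, beside 30.4% of all 537 genes. Among DNA replication and cell cycle genes it was 11 of 20 (55.0%). RTEL1, a telomere helicase (3.87, 3.72 and 3.67), DSN1, a kinetochore subunit (3.24, 5.61 and 3.15), and AURKA, the mitotic kinase (2.16, 2.80 and 3.02), had peaks in all 3 clones. GINS1 and MYBL2 had none. Among RNA processing genes it was 15 of 23 (65.2%), with PRPF6, a spliceosome protein (4.76, 5.45 and 3.70), YTHDF1, a reader of methylated adenosine (4.85, 6.39 and 3.48), and RBM12 (3.33, 7.47 and 3.29), beside ZNFX1, and with none at CRNKL1 and NELFCD. Among translation genes it was 6 of 9 (66.7%), but only EIF2S2, a subunit of initiation factor eIF2, had a peak in all 3 clones (5.07, 2.53 and 3.16). EIF6 (3.18 and 6.05), MRPS26 (5.30 and 3.23) and NOP56 (7.39 and 3.24) had theirs in clones 1 and 2, and EEF1A2 and PPDPF had none. PPDPF and MRGBP were on this list but are not translation genes, and neither is among the 6.

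Mitochondrial genes had 7 of 12 (58.3%). ROMO1, a regulator of reactive oxygen species, had peaks in all 3 clones (6.06, 3.97 and 4.23), ATP5F1E, a subunit of ATP synthase, and PRELID3B shared a peak in clones 1 and 3 (3.05 and 2.88), IDH3B, a subunit of isocitrate dehydrogenase, had one in clones 1 and 2 (3.82 and 4.13), and ACSS2 had none. Protein turnover and folding genes had 6 of 20 (30.0%), and clone 3 had a peak at 1 of them, DDRGK1. NSFL1C, an ATPase cofactor (7.0 and 3.47), RNF24 (4.77 and 3.50) and RPN2, a subunit of the oligosaccharyltransferase (3.78 and 3.79), had peaks in clones 1 and 2, and CTSA and DPM1 had none. Chromatin and transcription genes had 8 of 22 (36.4%), among them SS18L1 (4.50, 4.71 and 3.05), with none at GMEB2 and NFATC2.

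Myeloid and immune genes stood near the chromosome as a whole, with 10 of 31 (32.3%). PTPN1, a tyrosine phosphatase (3.84, 3.61 and 2.72), BCL2L1, an inhibitor of apoptosis (2.35, 2.22 and 2.14), and ID1 (2.71, 2.53 and 2.13) had peaks in all 3 clones. ADA and CD40 had none. Of 13 genes of the region often deleted from the long arm in myeloid disease, 5 (38.5%) had a peak in at least 2 clones: IFT52, TOP1, SRSF6, a splicing factor (3.65 and 2.75 in clones 1 and 3), PLCG1, a phospholipase of receptor signalling (6.95 and 6.98 in clones 1 and 2), and ZHX3, with ADA and HNF4A at none.

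The remaining lists hold genes of other tissues. Among neuronal and endocrine genes 13 of 21 had no gene-end peak in any clone, CHRNA4 and EEF1A2 among them, beside 238 of all 537 genes (44.3%). AVP, FOXA2 and MACROD2 had one in a single clone. All 13 beta-defensin, 11 WFDC and 8 BPI-fold genes lacked a gene-end peak in every clone. In the cystatin cluster 1 of 10 genes (10%) was marked by 2 clones. CST5 had peaks in clones 1 and 2 (4.98 and 4.0), and clone 2 had a peak at 5 of the 10 genes, beside 38.9% of all genes of the chromosome, among them CST11 (4.31), CST2 (3.00) and CST3 (3.86), while CST1 and CST4 had none in any clone. Clone 3 had none in this cluster, which lies in its peak-free stretch.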

How the data were processed

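ATAC-seq of 6 U937 libraries was analysed from the peak lists the authors deposited, 1 per library, so peaks were called per library. Per the submitters' processing notes, FastQC, Bowtie2, Picard and MACS2 were used with build GRCh38. Versions, settings and a read shift for the transposase were not given in the sources used here. The deposited values per summit are a fold enrichment (a linear ratio to local background) with a −log10 p and a −log10 q. The authors' score equals 10 times the −log10 q as a whole number and was not used. Each list starts at a −log10 q just above 2. These fold and q values are the authors' own and were used to describe, rank or filter peaks within a list.

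Lines with the same interval were counted as 1 peak with its summit of highest −log10 q. A summit offset below 0 in 127 lines of clone 2, 3 of them on chromosome 20, was set to 0. Regions were merged at an overlap of 1 bp. A gene-end peak overlaps the 1000 bp either side of an end of a protein-coding gene (RefSeq, GRCh38.p14), and position classes used the summit and long non-coding genes as well. The gene table gives no strand. Of the 537 genes, 384 had a promoter entry, under the 80% needed, so a check of gene-end peaks against transcript starts was void.

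The 3 measures per library entered an exact permutation test over 20 assignments as log10(value + 1). Chromosome 20 and the rest were compared within clones by an exact sign-flip permutation test, with Benjamini-Hochberg adjustment over 3 tests and a threshold of 0.05. Shares have exact Clopper-Pearson 95% intervals. Pile-up and background were solved from fold = (pile-up + 1)/(background + 1) and the Poisson tail p. The programs were tested on simulated data. Alternatives were stricter lists, equally long lists, other windows, overlaps and bins, every line counted, a replicate block, and leaving out each library.

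The genes named were, by rule, the 20 with gene-end peaks in all 3 clones and the smallest sum of ranks by −log10 q, the 3 peaks of highest fold per clone, the 5 best-ranked regions away from gene ends, up to 4 members with peaks in most clones and up to 2 with none from each of 13 gene lists, and the longest peak-free stretches. Exceptions are stated as such. Some items the rule picks are not reported here. The chromosome, the lists and the rules were chosen with earlier results of these data known. No genome sequence was used here, so peak sequences are not printed. Python 3.11.15, pandas 2.3.3, NumPy 2.4.6, SciPy 1.17.1 and matplotlib 3.10.9 were used.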

Additional observations from a re-analysis of the deposited data

How the results depend on the processing

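Under other settings, 103 values were recomputed for 15 results. Of the 103, 80 kept their direction and call, or stayed within the spread between clones, the counting interval or 1.5 times the count. Another 22, all in results without a test, moved past these limits, and 1, the gene-end difference, reversed. For results with a test no call could change, because the smallest possible p was 0.1 or 0.25, above the threshold of 0.05. The 80 are therefore no measure of robustness. The difference in peaks, covered length and genes from the control lines kept its direction and its permutation p of 0.1 under every alternative without the block. This was given in advance, because the control lines have 0 peaks on the chromosome under every setting, and it is no sign of a robust result. With the replicate number as a block, for pairs that share only a number, the differences were the same (2.68, 4.99 and 2.22 on the log10 scale) with an exact sign-flip permutation p = 0.25, the smallest that 3 pairs allow. The control lines have no peak here, so whether the numbers pair the libraries cannot be checked. Leaving out 1 library gave 2.48 to 2.88, 4.88 to 5.18 and 2.15 to 2.34.

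Counts in at least 2 clones fell under each stricter list: 160, 22 and 96 regions, and 77, 11 and 56 genes, at a −log10 q of 5 or more, a fold of 5 or more and equal lists. Leaving out 1 clone gave 124 to 282 regions and 75 to 148 genes. The gene-end difference became 1.28 points at a fold of 5 or more, with p = 0.75 (exact sign-flip permutation), and the width difference from other chromosomes 43.8 bp, higher in 3 of 3 clones (p = 0.25). Gene-end peaks exceeded other chromosome 20 peaks by 62.8 bp on average, and by 21.25 to 85.75 bp without 1 clone, lowest without clone 1. Without 1 clone the gene-end difference was −4.61 to −3.18 points, the width difference 0 to 2.5 bp, the share of peaks 4.05 to 6.71% and the fullest bin 18.5 to 24.8%. The fullest bin held 28.7% at a fold of 5 or more and 28.9% in equal lists.

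The following were added after seeing the data. The share in the first 25 Mb was 51.7% in clone 1 and 2.67% in clone 3 at a −log10 q of 5 or more, 67.6% in clone 1 in equal lists, 49.6% in clone 1 at the −log10 p limit of the strictest control list, and 17.2% in clone 2 and 0% in clone 3 at a fold of 5 or more. Regions of clones 1 and 2 also in clone 3 were 1.64% in the first 25 Mb and 43.1% from 30 Mb on at a −log10 q of 5 or more, and 28.6% and 87.5% in equal lists, the latter over 8 regions. The causes were not tested. Depth limits every absence: no peak in a list is not closed chromatin, and clone 3 has the fewest peaks.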
